A study of Mus musculus with 12 samples.

Results

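The genes described here encode the protein complexes of oxidative phosphorylation, measured in the livers of 12 mice at 5 days of age, with 1 array per mouse. Members were taken by symbol: every measured gene whose name begins with Nduf, Uqcr, Atp5, Cox4, Cox5, Cox6, Cox7 or Cox8, together with Sdha, Sdhb, Sdhc, Sdhd, Cyc1 and Cycs, and without 3 symbols that mark pseudogenes. The rule found 85 of the 23185 genes on the arrays, out of 98 protein-coding mouse genes in RefSeq that carry such names. Of the 85 members, 33 belong to complex I, 4 to complex II, 8 to complex III, 18 to complex IV and 12 to complex V, 1 is cytochrome c, and 9 share a prefix but are assembly factors or related proteins (Ndufaf1 to Ndufaf8 and Cox7a2l). No measured value entered the rule, and no member was filtered out, so all 85 were tested.

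In one arm of the study, 3 Cre-positive livers with a liver-specific deletion of Lkb1 (LKB1 KO; official gene symbol Stk11) were set against 3 Cre-negative normal livers (LKB1 WT). In the other arm, 3 Cre-positive livers in which RbpJk had been deleted to inactivate the Notch pathway (RbpJk KO; official symbol Rbpj) were compared with 3 further Cre-negative livers (RbpJk WT). Lkb1 is a kinase that activates AMPK, the cellular energy sensor, and RbpJk is the DNA-binding protein through which Notch receptors act on transcription. All 12 animals were labelled male, and the promoter that drives Cre in these newborn mice is not given in the sources used here.

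Oxidative phosphorylation takes place in the inner mitochondrial membrane. Complex I accepts electrons from NADH and complex II from succinate, complex III passes them on to the small carrier cytochrome c, and complex IV hands them to oxygen, while complex V uses the proton gradient built on the way to make ATP. Most subunits are encoded in the nucleus and a few in mitochondrial DNA, so the nuclear genes studied here need transcription factors that act on many of them together, of which NRF1, GABPA (NRF2), YY1 and the estrogen-related receptors (ERR) are the best known. In the liver, this machinery pays for gluconeogenesis and urea synthesis, and it matures around birth. Several complex IV subunits come in pairs, with a form found in most tissues and a form typical of heart and skeletal muscle.

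The promoter windows of 4 members are printed as examples. They are Cox7a1, which had the greatest change of all members, and Cox7a2, its counterpart in the liver. The others, Sdhd and Ndufa8, are members of the broad and smaller shift that hold a binding motif. Each window runs from 250 bases before to 50 bases after the annotated start of the gene. It is printed 5′ to 3′ on the gene's strand, in RefSeq's mouse assembly GRCm38.p6. Capitals mark a match to 1 of 4 motifs searched on both strands, GCGCATGC for NRF1, CCGGAAGT for GABPA, AAGATGGCG for YY1 and TCAAGGTCA for ERR. The windows lie at chr7:30183921-30184220 (Cox7a1, plus strand), chr9:79759804-79760103 (Cox7a2, minus strand), chr9:50603800-50604099 (Sdhd, minus strand) and chr2:36049289-36049588 (Ndufa8, minus strand).
Cox7a1: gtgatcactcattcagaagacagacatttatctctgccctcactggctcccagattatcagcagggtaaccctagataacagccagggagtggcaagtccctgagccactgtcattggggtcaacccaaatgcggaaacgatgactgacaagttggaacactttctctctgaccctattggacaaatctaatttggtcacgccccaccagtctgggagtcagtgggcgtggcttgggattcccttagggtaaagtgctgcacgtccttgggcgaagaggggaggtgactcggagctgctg
Cox7a2: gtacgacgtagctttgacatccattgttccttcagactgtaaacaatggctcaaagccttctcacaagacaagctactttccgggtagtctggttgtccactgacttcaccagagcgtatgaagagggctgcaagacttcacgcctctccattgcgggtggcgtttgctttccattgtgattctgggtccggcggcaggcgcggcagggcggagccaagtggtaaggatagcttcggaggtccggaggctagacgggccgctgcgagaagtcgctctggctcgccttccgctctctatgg
Sdhd: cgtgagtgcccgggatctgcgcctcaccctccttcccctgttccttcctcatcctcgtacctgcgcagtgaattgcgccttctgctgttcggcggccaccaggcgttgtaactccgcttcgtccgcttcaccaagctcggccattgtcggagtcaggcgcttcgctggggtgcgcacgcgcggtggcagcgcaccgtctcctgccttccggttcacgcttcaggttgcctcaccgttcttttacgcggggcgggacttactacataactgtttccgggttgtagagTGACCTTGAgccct
Ndufa8: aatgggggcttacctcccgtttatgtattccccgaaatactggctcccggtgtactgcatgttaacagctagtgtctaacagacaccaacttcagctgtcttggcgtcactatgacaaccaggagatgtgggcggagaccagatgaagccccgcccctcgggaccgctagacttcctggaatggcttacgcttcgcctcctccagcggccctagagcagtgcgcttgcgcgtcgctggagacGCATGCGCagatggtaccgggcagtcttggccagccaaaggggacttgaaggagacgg

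The capitals in Sdhd are the ERR motif on the opposite strand, starting at base 287 of the 300-base window, and those in Ndufa8 are the NRF1 motif on the opposite strand, starting at base 243. The letters of the 4 motifs do not occur in the windows of Cox7a1 and Cox7a2. Of the 85 members, 69 matched a promoter in the RefSeq table, and 23 of them held at least 1 of the 4 motifs. The NRF1 motif stood in 11 of the 69 (15.9%, against 3.05% of all 27025 genes with a promoter), among them Cycs, Ndufa8, Sdhb, Uqcrc1 and Uqcr11. The YY1 motif stood in 7 (10.1%, against 1.64% of all genes), the GABPA motif in 4 (5.80%, against 4.31%) and the ERR motif in 2, Atp5g3 and Sdhd (2.90%, against 0.466%). Motif matches describe the letters of the window and were not tested as sites. In the LKB1 arm the median log2 change was 0.29 for the 11 members with the NRF1 motif, 0.28 for the 4 with the GABPA motif, 0.17 for the 7 with the YY1 motif and 0.32 for the 2 with the ERR motif, against 0.23 for all 85 members.

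The deposited values are log2 expression levels, so a difference of 1 is a doubling. They do not order different genes, because the brightness of a probe set depends on its probes as well as on the transcript, and they carry no detection call. Each change below is the difference of group means, given with its standard error (SE) from a limma model over all 12 arrays. Unless another setting is named, the adjusted p is that model's p after Benjamini-Hochberg adjustment over all 23185 genes. A gene was called at an adjusted p under 0.05. Nothing in the labels says which mice were littermates. The liver was profiled as a whole, so fewer cells of a type and less RNA per cell cannot be told apart.

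Stk11 read 7.03, 6.85 and 6.38 in LKB1 KO livers, against 7.58, 7.53 and 7.53 in LKB1 WT livers (log2 change −0.80 ± 0.15, limma adjusted p = 0.022; two-sided exact permutation p = 0.1, the smallest that 3 against 3 allows). Leaving out LKB1 KO 2, LKB1 KO 3 or any LKB1 WT array ended this call, with changes of −0.61 to −0.84 and limma adjusted p of 0.058 to 0.088. Rbpj read 4.61, 4.48 and 3.92 in RbpJk KO livers, against 4.84, 5.05 and 5.31 in RbpJk WT livers (−0.73 ± 0.19, limma adjusted p = 0.072; exact permutation p = 0.1). The 9 hepatocyte markers averaged between 11.42 and 11.62 on the 12 arrays. A pair of RbpJk arrays carried transcripts of another tissue. RbpJk KO 2 had a mean of 7.72 over 12 striated muscle markers, against 3.84 to 4.34 on the other arrays, and RbpJk WT 1 had a mean of 7.31 over 7 pancreatic acinar markers, against at most 4.85 elsewhere. Xist, which is expressed from the inactive X chromosome of female cells, was above a log2 level of 8 on 6 of the 12 arrays. These were 1 of 3 LKB1 KO, 3 of 3 LKB1 WT, 0 of 3 RbpJk KO and 2 of 3 RbpJk WT arrays. Eif2s3y, a gene of the Y chromosome, read 2.30 to 2.94 on these 6 arrays and 7.23 to 7.95 on the rest. On these 6 arrays both genes were at odds with the male label.

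The first comparison asked how the members' transcripts differed once Lkb1 had been deleted. Most of them were slightly higher in LKB1 KO livers: the median log2 change of the 85 members was 0.23 (a 1.17-fold difference), against −0.01 over all 23185 genes, and 76 of 85 had a positive change. A single member, Cox7a1, passed the threshold upward and 0 passed it downward, where 0.418% of all genes were called higher and 0.543% lower. At an unadjusted p under 0.05, 38 members were higher and 0 lower, where 3.74% and 4.31% of all genes were. For 40 of the 85 members all 3 LKB1 KO arrays lay above all 3 LKB1 WT arrays, and for 1 member, Cox8c, they all lay below. Over all genes these shares were 7.77% and 8.6%.

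**Figure D1:**
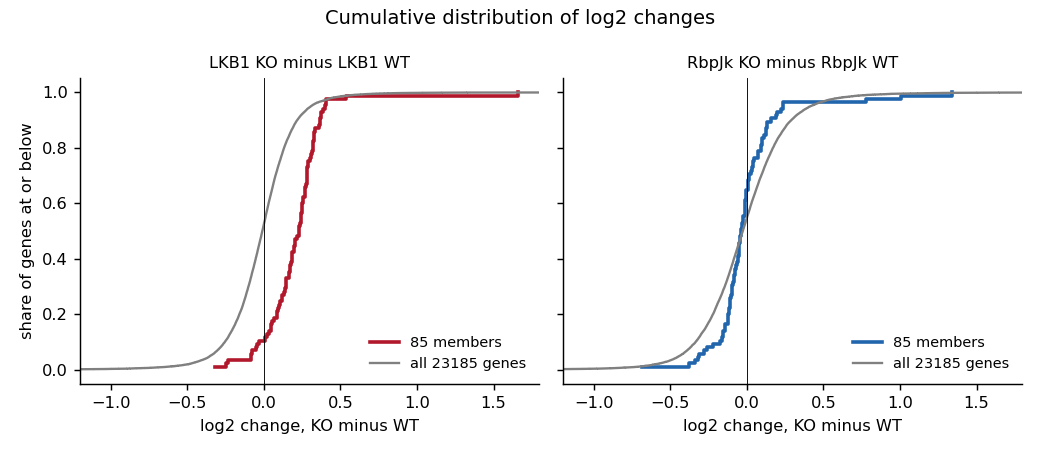
Cumulative share of genes (vertical axis) at or below a given log2 change, KO minus WT (horizontal axis), for the 85 members (coloured) and all 23185 genes (grey), in the LKB1 arm on the left and the RbpJk arm on the right. The members' curve is shifted to the right of all genes in the LKB1 arm, with medians of 0.23 and −0.01, and crosses theirs near 0 in the RbpJk arm.

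Array by array, the median level of the 85 members was 9.11, 8.90 and 9.11 in LKB1 KO livers, against 8.79, 8.75 and 8.75 in LKB1 WT livers. The 3 LKB1 KO livers were thus all above the 3 LKB1 WT livers, with LKB1 KO 2 nearest to them. LKB1 KO 2 had the lowest of the 3 knockout values for 66 of the 85 members. Measured against the mean of the LKB1 WT arrays, the members' median difference was 0.26, 0.12 and 0.29 on the 3 LKB1 KO arrays, while that of all genes was between −0.02 and 0.00.

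Groups that did not overlap were more frequent among bright probe sets in general. Of the 56 members with a mean log2 level of 8 or more over the 12 arrays, 36 had all LKB1 KO arrays above all LKB1 WT arrays, where 16.4% of all 1978 genes at that level did. Their median change was 0.24, against 0.01 for all genes at that level, and 55 of the 56 were positive. The 29 dimmer members had a median change of 0.12, and 21 of them were positive. The exception among the bright members was Ndufa12, a complex I subunit, which read 9.02, 8.72 and 8.72 in LKB1 KO livers, against 8.65, 9.99 and 8.79 in LKB1 WT livers. LKB1 WT 2 alone stood high for it, and its change of −0.32 ± 0.25 did not pass the test (limma adjusted p = 0.91).

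**Figure D2:**
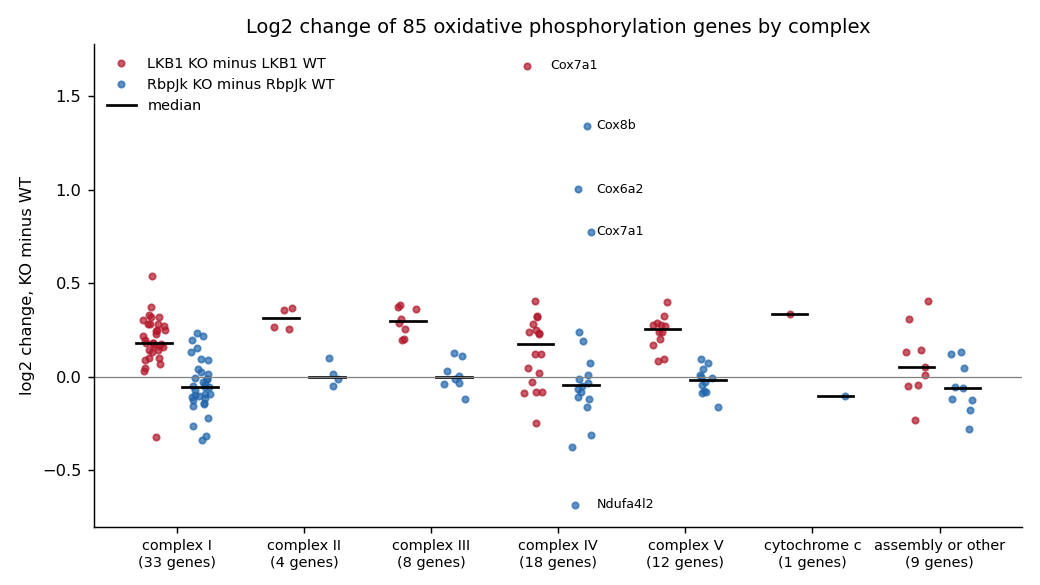
Log2 change, KO minus WT (vertical axis), of each member, grouped by complex (horizontal axis), with the LKB1 arm in red and the RbpJk arm in blue; black lines are group medians and the number of genes stands under each name. In the LKB1 arm every complex has a median above 0, from 0.17 in complex IV to 0.31 in complex II, and in the RbpJk arm the medians of the 5 complexes lie between −0.05 and 0.00, with 3 muscle-type subunits of complex IV far above the rest.

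Complex I, the NADH dehydrogenase, had a median log2 change of 0.18 in LKB1 KO livers, with 32 of 33 subunits positive, 0 called and 13 wholly above the LKB1 WT arrays, where 7.77% of all genes and 16.4% of the bright ones were. Ndufa8, an accessory subunit on the intermembrane side and holder of the NRF1 motif printed above, had the smallest p of the complex. It read 9.19, 9.07 and 9.24 in LKB1 KO livers, against 8.86, 8.81 and 8.72 in LKB1 WT livers. The groups did not overlap, but the change of 0.37 ± 0.10 missed the threshold after adjustment (limma adjusted p = 0.12). Ndufv1, which holds the NADH binding site, read 8.46, 8.26 and 8.56 in LKB1 KO livers, against 8.13, 8.12 and 8.09 in LKB1 WT livers (0.32 ± 0.11, limma adjusted p = 0.36). The highest point estimate, 0.54 ± 0.25 for the acyl carrier protein Ndufab1, came with overlapping groups (limma adjusted p = 0.61). LKB1 WT 1 read 6.87 for Ndufab1, just above the lowest LKB1 KO array at 6.86.

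Complex II, succinate dehydrogenase, is also an enzyme of the tricarboxylic acid cycle, and its 4 subunits had changes between 0.25 and 0.37. Of the 4, 3 lay wholly above the LKB1 WT arrays and 0 were called. Over all genes 7.77% lay wholly above, as did 16.4% of the bright ones, and 0.418% were called higher. Sdhc, a membrane anchor, read 9.52, 9.41 and 9.55 in LKB1 KO livers, against 9.12, 9.17 and 9.09 in LKB1 WT livers. No array of one group reached the other, and the change of 0.37 ± 0.08 lay just outside the threshold (limma adjusted p = 0.051; two-sided exact permutation p = 0.1, the smallest possible). Sdhd, the other anchor and the holder of the ERR motif printed above, read 9.16, 9.02 and 8.99 in LKB1 KO livers, against 8.77, 8.66 and 8.65 in LKB1 WT livers (0.36 ± 0.08, limma adjusted p = 0.072). Sdha, the flavoprotein, also had non-overlapping groups, whereas Sdhb, the iron-sulfur subunit, had LKB1 KO 2 at 9.49 and the highest LKB1 WT array at 9.54.

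Complex III was the complex in which all 8 members, Cyc1 included, had every LKB1 KO array above every LKB1 WT array. Their changes lay between 0.20 and 0.38, and 0 were called. Over all genes 7.77% lay wholly above, 16.4% of those with a mean level of 8 or more, and 0.418% were called higher. Cyc1, the cytochrome c1 subunit, read 9.31, 9.27 and 9.40 in LKB1 KO livers, against 9.03, 8.92 and 8.91 in LKB1 WT livers (0.37 ± 0.10, limma adjusted p = 0.12). Uqcrh, the hinge protein, read 10.72, 10.51 and 10.56 in LKB1 KO livers, against 10.23, 10.20 and 10.21 in LKB1 WT livers, a difference larger than the spread within either group. The limma adjusted p over all 12 arrays was 0.53. In the RbpJk arm, RbpJk WT 3 stood at 9.59 while the other arrays lay between 10.02 and 10.41, and Uqcrh was called when RbpJk WT 3 was left out. Fitted on the 6 arrays of the LKB1 arm alone, Uqcrh and Cox7a2 were called beside Cox7a1.

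Cytochrome c itself (Cycs) read 4.77, 4.59 and 4.35 in LKB1 KO livers, against 4.60, 3.80 and 4.32 in LKB1 WT livers. These values lay below the array medians of 4.84 to 5.01, so the probe set was dim. The groups overlapped and the change of 0.33 ± 0.21 did not pass the test (limma adjusted p = 0.83). Complex V, the ATP synthase, had a median change of 0.26 with 12 of 12 members positive, 0 called and 6 wholly above the LKB1 WT arrays. Of all genes 7.77% lay wholly above, as did 16.4% of the bright ones, and 0.418% were called higher. Atp5d, the delta subunit of the central stalk, read 9.92, 9.73 and 9.89 in LKB1 KO livers, against 9.57, 9.52 and 9.48 in LKB1 WT livers (0.33 ± 0.09, limma adjusted p = 0.13). Atp5b, the catalytic beta subunit, read 11.28, 11.27 and 11.30 in LKB1 KO livers, against 11.04, 10.99 and 11.10 in LKB1 WT livers (0.24 ± 0.07, limma adjusted p = 0.18). Both had groups that did not overlap. The 9 assembly factors and related proteins moved less, with a median of 0.05 and 6 of 9 positive. Ndufaf4 and Ndufaf5 lay wholly above the LKB1 WT arrays, 2 of 9 where 7.77% of all genes did.

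**Figure D3:**
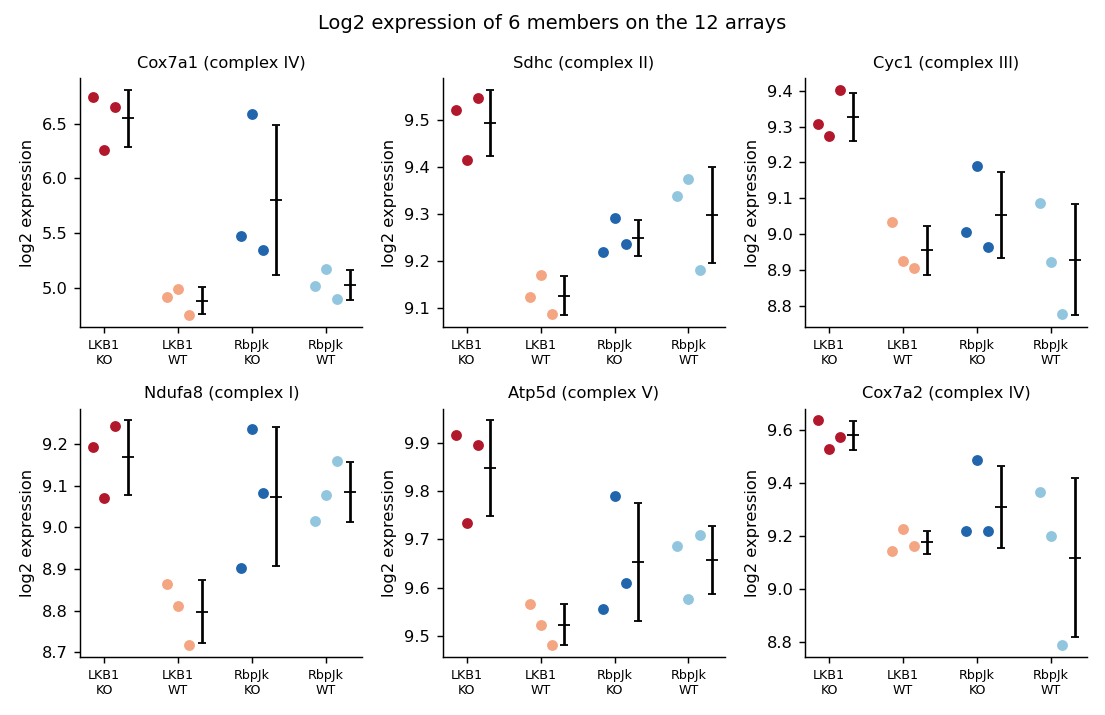
Log2 expression (vertical axis, its own range in each panel) of 6 members on each array, in LKB1 KO, LKB1 WT, RbpJk KO and RbpJk WT livers from left to right; points are arrays and the bar beside them is the mean ± SD (n = 3). In each panel the 3 LKB1 KO arrays lie above the 3 LKB1 WT arrays, and in the RbpJk arm the groups overlap except for Cox7a1.

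Complex IV, cytochrome c oxidase, held the member with the greatest change. Cox7a1, the form of subunit 7a known from heart and skeletal muscle, read 6.75, 6.26 and 6.65 in LKB1 KO livers, against 4.92, 4.99 and 4.75 in LKB1 WT livers. All LKB1 KO arrays were more than 1 log2 unit above all LKB1 WT arrays, and the change of 1.66 ± 0.26, a 3.17-fold rise, passed the test (limma adjusted p = 0.0043; two-sided exact permutation p = 0.1, the smallest possible). Of 22 alternative analyses, 21 also called it; the exception was the methods' t-test after adjustment. The striated muscle markers overlapped between the groups: their mean over 12 genes was 3.89 to 3.95 in LKB1 KO livers, against 3.84 to 3.99 in LKB1 WT livers. The other muscle-type subunits overlapped as well. Cox6a2 read 5.23 to 5.48 in LKB1 KO livers, against 5.28 to 5.49 in LKB1 WT livers, and Cox8b read 4.0 to 4.13 in LKB1 KO livers, against 4.04 to 4.28 in LKB1 WT livers. Cox7a1 is also known from brown fat, whose uncoupling protein Ucp1 read 2.94 to 3.06 in LKB1 KO livers, against 2.95 to 3.04 in LKB1 WT livers. Which cells the Cox7a1 transcripts came from was not tested.

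Of the 18 complex IV members, 13 were positive and 5 negative in the LKB1 arm. Among them 8 lay wholly above the LKB1 WT arrays, 1 lay wholly below and 1, Cox7a1, was called. Over all genes 7.77% lay wholly above and 8.6% below, and 0.418% were called higher. Of the bright genes 16.4% lay wholly above. The forms of complex IV subunits that most tissues use shared the small shift of the other complexes. Cox7a2 read 9.64, 9.53 and 9.58 in LKB1 KO livers, against 9.14, 9.23 and 9.16 in LKB1 WT livers (0.40 ± 0.13, limma adjusted p = 0.24), so both forms of subunit 7a were higher in every LKB1 KO liver. Cox6b1, which joins the monomers of the enzyme, changed by 0.32 ± 0.08 (limma adjusted p = 0.12), Cox8a by 0.28 ± 0.09, Ndufa4 by 0.24 ± 0.08, Cox4i1 by 0.23 ± 0.08 and Cox6a1 by 0.23 ± 0.11, each with non-overlapping groups and none called. Their counterparts lay near 0 with overlapping groups: Cox6b2, known from testis, at 0.05 ± 0.20, Cox4i2, known from lung, at −0.03 ± 0.14, and Ndufa4l2, induced by low oxygen, at 0.12 ± 0.26. The signs of all 3 turned under some alternatives. Cox8c, another testis form, was the member wholly below, at 3.07, 3.01 and 3.04 in LKB1 KO livers, against 3.20, 3.39 and 3.28 in LKB1 WT livers (−0.25 ± 0.14, limma adjusted p = 0.79). Its values lay below the array medians of 4.84 to 5.01.

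Other values differed between LKB1 KO and LKB1 WT livers along with the members. The mean of 11 endothelial markers was 7.57 to 7.73 in LKB1 KO livers, against 7.9 to 8.0 in LKB1 WT livers. Of these, 11 of 11 were lower, 9 lay wholly below the LKB1 WT arrays and 0 were called. The mean of 11 Kupffer cell and macrophage markers was 7.75 to 7.88 in LKB1 KO livers, against 8.06 to 8.19 in LKB1 WT livers. Of these, 11 of 11 were lower, 6 lay wholly below the LKB1 WT arrays and 0 were called. Over all genes 8.6% lay wholly below and 0.543% were called lower. Hepatocyte markers averaged 11.50 to 11.59 in LKB1 KO livers, against 11.57 to 11.62 in LKB1 WT livers, and erythroid markers 8.81 to 9.33 in LKB1 KO livers, against 9.10 to 9.39 in LKB1 WT livers. The part of these cell types in the members' shift was not tested. Xist class, and with it sex as read from Xist and Eif2s3y, differed along with genotype as well. LKB1 KO 3, the 1 LKB1 KO array of the same class as the 3 LKB1 WT arrays, had a median difference of 0.29 from them over the members, with 65 of 85 above all 3, where 27.6% of all genes were. With Xist class as a covariate the members' median was 0.27. The comparison within the class rests on 1 LKB1 KO array, and the part of Xist class in the shift was not tested.

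The second comparison asked the same of RbpJk. The members' changes lay around 0: their median log2 change was −0.04, against −0.03 over all genes, with 30 of 85 positive, and the sign of this median turned to 0.02 when each array was centred on its median. By limma, 0 members were called higher and 0 lower, where 1.12% and 0.565% of all genes were. At an unadjusted p under 0.05, 1 was higher and 3 were lower, where 7.52% and 6.97% of all genes were, and the methods' t-test gave 0 and 4. All RbpJk KO arrays lay above the RbpJk WT arrays for 1 member and below for 6, where 8.25% and 8% of all genes did. The members' median level was 8.85, 8.91 and 8.84 in RbpJk KO livers, against 8.95, 8.92 and 8.79 in RbpJk WT livers, so the groups overlapped. The median change was −0.06 without RbpJk KO 2, the array with muscle transcripts, and −0.01 without RbpJk WT 1, the one with pancreatic transcripts.

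The 3 members lower at an unadjusted p under 0.05 were Ndufa4l2, Ndufa3 and Ndufb2. Ndufa4l2 read 4.07, 4.77 and 4.78 in RbpJk KO livers, against 4.91, 5.10 and 5.67 in RbpJk WT livers (−0.69 ± 0.26, limma adjusted p = 0.23). Ndufa3, a small accessory subunit of complex I, read 9.67, 9.30 and 9.58 in RbpJk KO livers, against 9.79, 9.96 and 9.59 in RbpJk WT livers (−0.26 ± 0.11, limma adjusted p = 0.30). RbpJk KO 1 lay above RbpJk WT 3 for Ndufa3, whereas the groups of Ndufa4l2 did not overlap. In the other complexes the members with the smallest p were Sdha (0.10 ± 0.10), Uqcr11 (−0.12 ± 0.09), Atp5j (−0.16 ± 0.10) and Cycs (−0.10 ± 0.21), with limma adjusted p between 0.50 and 0.87.

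Cox7a1 was the member wholly above in the RbpJk arm as well, at 5.48, 6.59 and 5.35 in RbpJk KO livers, against 5.02, 5.17 and 4.90 in RbpJk WT livers (0.78 ± 0.26, limma adjusted p = 0.16; exact permutation p = 0.1). The array at 6.59 was RbpJk KO 2, the one with muscle transcripts, and without it the change was 0.38. The same array set the values of the other muscle-type subunits. Cox6a2 read 5.18, 8.35 and 5.55 in RbpJk KO livers, against 5.28, 5.61 and 5.17 in RbpJk WT livers, and Cox8b read 4.04, 8.34 and 4.10 in RbpJk KO livers, against 4.31, 3.77 and 4.38 in RbpJk WT livers. Neither passed the test (1.0 ± 0.55 and 1.34 ± 0.78, limma adjusted p = 0.43 and 0.46), and without RbpJk KO 2 the changes were 0.01 for Cox6a2 and −0.08 for Cox8b.

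**Figure D4:**
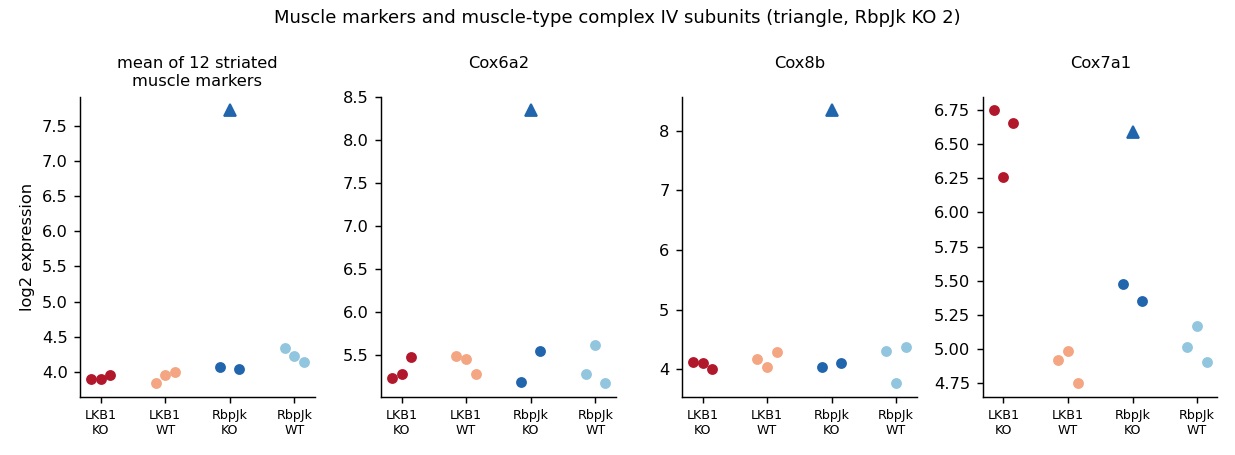
Log2 expression (vertical axis, its own range in each panel) on each array of the mean of 12 striated muscle markers and of Cox6a2, Cox8b and Cox7a1, in LKB1 KO, LKB1 WT, RbpJk KO and RbpJk WT livers from left to right; points are arrays and the triangle is RbpJk KO 2. That array stands alone in the first 3 panels. For Cox7a1 the 3 LKB1 KO arrays, from 6.26 to 6.75, lie near it. The source of the Cox7a1 transcripts was not tested.

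The other paired forms had changes of either sign in the RbpJk arm, and none was called. Cox4i1 changed by −0.01 ± 0.08, Cox4i2 by −0.11 ± 0.14, Cox6a1 by −0.07 ± 0.11, Cox6b1 by −0.08 ± 0.08, Cox8a by −0.12 ± 0.09 and Ndufa4 by 0.01 ± 0.08, and of these the signs of Cox4i1, Cox6a1 and Ndufa4 turned under some alternatives. Cox7a2 changed by 0.19 ± 0.13, with RbpJk WT 3 low at 8.79, and Cox6b2 by −0.38 ± 0.20.

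The third comparison tested whether the effects of the deletions differed. The difference, the change in the LKB1 arm minus that in the RbpJk arm, was positive for 75 of 85 members, with a median of 0.24 against 0.01 over all genes. For single members it was not resolved: 0 were called by limma, where 0.181% of all genes were. At an unadjusted p under 0.05 the difference was positive for 23 members and negative for 0, where 3.94% and 5.19% of all genes were. The smallest p belonged to Sdhc, at 0.42 (limma adjusted p = 0.23). For Cox7a1 the difference was 0.89 ± 0.36 (limma adjusted p = 0.46), and without RbpJk KO 2 it was 1.28 (limma adjusted p = 0.049).

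The neighbouring pathways were read from lists of textbook genes. Of the 17 measured enzymes of the tricarboxylic acid cycle and its entry, complex II left out, 3 were called higher in LKB1 KO livers and 0 lower, with a median change of 0.22, where 0.418% of all genes were called higher and their median was −0.01. Mdh2, mitochondrial malate dehydrogenase, read 10.80, 10.73 and 10.97 in LKB1 KO livers, against 10.34, 10.21 and 10.24 in LKB1 WT livers (0.57 ± 0.08, limma adjusted p = 0.0033). Fh1, fumarase, rose by 0.57 ± 0.11 (limma adjusted p = 0.023), and Idh2, the NADP-dependent mitochondrial isocitrate dehydrogenase, by 0.37 ± 0.08 (limma adjusted p = 0.044). Mdh2 lost its call in 1 of 22 alternatives, Fh1 in 6 and Idh2 in 11. For Fh1 these included leaving out LKB1 KO 1, LKB1 KO 3, LKB1 WT 2 or LKB1 WT 3 (0.49 to 0.60, limma adjusted p 0.069 to 0.13), and for Idh2 leaving out any array of the LKB1 arm, RbpJk KO 3 or RbpJk WT 1 (0.34 to 0.41, limma adjusted p 0.062 to 0.22). Fumarase and malate dehydrogenase catalyse the steps that follow succinate dehydrogenase. In the RbpJk arm 0 of the 17 were called, where 1.12% of all genes were called higher and 0.565% lower. Dlat, a subunit of pyruvate dehydrogenase, had the smallest p there (0.39 ± 0.13, limma adjusted p = 0.16).

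The 76 mitochondrial ribosomal proteins, which serve the synthesis of the subunits encoded in mitochondrial DNA, had a median change of 0.15 in LKB1 KO livers, with 67 positive, 20 wholly above the LKB1 WT arrays and 0 called, where 7.77% of all genes lay wholly above and 0.418% were called higher. In the RbpJk arm their median was −0.06, with 25 positive and 0 called, where 1.12% of all genes were called higher and 0.565% lower. The smallest p belonged to Mrps33 in the LKB1 arm (0.30 ± 0.10, limma adjusted p = 0.33) and to Mrpl51 in the RbpJk arm (−0.37 ± 0.13, limma adjusted p = 0.19). Subunits encoded in mitochondrial DNA were not analysed here, as 0 of 26 names searched matched a probe set.

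Of 22 complex IV assembly factors, 1 was called lower in LKB1 KO livers and 0 higher, where 0.543% and 0.418% of all genes were, with a median of 0.10. It was Sco2, a copper chaperone of the enzyme, at 6.67, 6.78 and 6.79 in LKB1 KO livers, against 7.46, 7.90 and 7.73 in LKB1 WT livers. The change of −0.95 ± 0.15 (limma adjusted p = 0.0066) ran against the direction of most subunits. Sco2 was also lower in RbpJk KO livers, without a call (−0.36 ± 0.15, limma adjusted p = 0.29). Of 22 assembly factors of the other complexes that the naming rule does not cover, 0 were called and 19 were positive (median 0.11), Sdhaf1, which matures the iron-sulfur subunit of complex II, having the smallest p (0.44 ± 0.16, limma adjusted p = 0.35). In the RbpJk arm the medians of these lists were −0.14 and −0.07 with 0 called, where 1.12% of all genes were called higher and 0.565% lower. The smallest p belonged to Cox16 (−0.32 ± 0.11, limma adjusted p = 0.16) and Ttc19 (0.57 ± 0.16, limma adjusted p = 0.094).

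Of 20 regulators of mitochondrial gene expression, 0 were called in LKB1 KO livers, with a median of 0.09. Over all genes 0.418% were called higher and 0.543% lower in the LKB1 arm. Ppargc1a, the coactivator PGC-1α, had the smallest p and read 8.05, 8.73 and 8.48 in LKB1 KO livers, against 7.64, 8.10 and 8.19 in LKB1 WT livers, with overlapping groups (0.45 ± 0.19, limma adjusted p = 0.54). In RbpJk KO livers 1 of the 20 was called, Esrrg, an estrogen-related receptor, which read 4.96, 4.44 and 4.27, against 5.21, 5.51 and 5.80 in RbpJk WT livers (−0.95 ± 0.19, limma adjusted p = 0.021), where 0.565% of all genes were called lower. Esrrg lost its call in 8 of 22 alternatives, among them leaving out RbpJk KO 2, RbpJk KO 3, RbpJk WT 2 or RbpJk WT 3 (−0.80 to −0.95, limma adjusted p 0.064 to 0.097). It was also lower in LKB1 KO livers, without a call (−0.43 ± 0.19, limma adjusted p = 0.57). Among 12 carriers and channels for ATP export and coupling 0 were called in either arm, with medians of 0.12 in the LKB1 arm and 0.06 in the RbpJk arm. In the RbpJk arm 1.12% of all genes were called higher and 0.565% lower, and the LKB1 shares are those above. The smallest p belonged to Slc25a3, the phosphate carrier, in the LKB1 arm (0.36 ± 0.11, limma adjusted p = 0.19) and to Slc25a27 in the RbpJk arm (0.37 ± 0.14, limma adjusted p = 0.22).

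**Figure D5:**
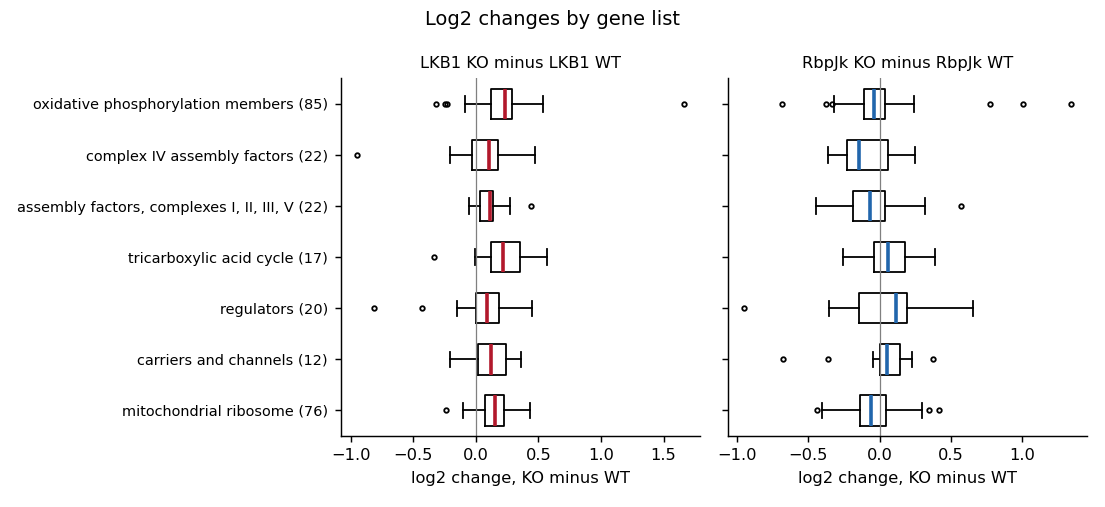
Log2 changes, KO minus WT (horizontal axis), of the 85 members and of 6 other lists, with the number of genes beside each name, in the LKB1 arm on the left and the RbpJk arm on the right; boxes span the quartiles, the coloured line is the median, whiskers reach 1.5 times the box and circles are genes beyond them. All 7 medians are above 0 in the LKB1 arm, from 0.09 to 0.23, and lie between −0.14 and 0.11 in the RbpJk arm.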

How the data were processed

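Liver RNA from 12 mice was measured on Affymetrix whole-transcript arrays, 3 per group, with groups taken from the labels' genotype and Cre status. The authors deposited log2 expression values, 1 per probe set, and the submitters' processing notes name Partek. Which array model and image software were used for these 12 arrays is unclear, as the methods describe the study's arrays in general. Background correction, normalization and probe set definition: not given in the sources used here. Array medians were 4.84 to 5.01, 0 pairs of arrays held identical values, and 0 columns were left unused. Of 25206 probe sets, the 23185 with 1 gene symbol were analysed, unfiltered and untransformed. Precision is limited by how many arrays there are, and background signal narrows the changes of dim probe sets.

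A group-means model over 12 arrays was fitted with limma 3.58.1 in R 4.3.3 (lmFit, contrasts.fit, eBayes with an intensity trend; 8 residual and 5.88 prior degrees of freedom) and tested on simulated data. Each knockout was compared with the Cre-negative livers of the same arm, and the 2 effects with each other. Every adjusted p is from this model over all 23185 genes, unless a left-out array or another setting is named with it. No label ties a knockout to a control or gives a batch, and nothing says how the animals were bred, so p-values measure the spread between these mice. Exact permutation tests were two-sided.

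The members and lists were chosen with earlier results of these data known. Genes were named by rule: called members; per complex and for cytochrome c, the member with the smallest p in a knockout comparison without a called one; 6 pairs of subunit forms; the targeted genes; and per other list up to 4 called genes or the one with the smallest p. Sdha, Sdhb and Sdhd in the LKB1 arm, Ndufv1, Ndufab1, Ndufa12, Ndufb2, Uqcrh, Atp5b, Cox8c, Ndufaf4, Ndufaf5 and Ucp1 were named after their values were seen. So were Esrrg in the LKB1 arm and Sco2 in the RbpJk arm. Promoters came from RefSeq (GRCm38.p6). Marker lists were hepatocyte, erythroid, Kupffer cell, endothelial, stellate, cholangiocyte, B cell, neutrophil, striated muscle and pancreatic acinar. Alternatives were the 6 arrays of an arm alone, other variance models, array weights, bright or all probe sets, quantile normalization and median centring. Further ones were an unpaired t-test, Xist class as a covariate, and leaving out each array. The unpaired t-test is the paper's general test for comparing groups, whereas its microarray data were analysed with BRB-Array Tools. Counts of non-overlapping members under other scalings, the background of bright genes and fits within an Xist class were added after the data were seen.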

Additional observations from a re-analysis of the deposited data

How the results depend on the processing

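The number of called members moved with the setting. In LKB1 KO against LKB1 WT livers, 1 member was called higher; with the 6 arrays of the arm alone it was 3, with array weights 9, with bright probe sets only 3, with median centring 3 and with quantile normalization 4. Without a trend, with robust variance, with all probe sets and with the Xist covariate it was 1. The unpaired t-test gave 36 higher and 1 lower at an unadjusted p under 0.05, and 0 after Benjamini-Hochberg adjustment. In the RbpJk arm it gave 4 lower at the unadjusted threshold. Leaving out each array gave 1 to 3 called higher in the LKB1 arm (3 without RbpJk WT 3, 2 without RbpJk WT 2) and 0 to 1 for the difference (1, Cox7a1, without RbpJk KO 2). The main fit called 0.418% of all genes higher in the LKB1 arm. For the other settings the share of all genes called is not given. These counts therefore do not show whether members moved more than other genes. Why the counts moved was not tested, except that fewer genes were adjusted over with bright probe sets.

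The members' median change in the LKB1 arm was 0.19 to 0.26 on leaving out each array and 0.23 to 0.29 under the other settings, and in the RbpJk arm −0.07 to −0.01 and −0.09 to 0.02. Members wholly above the LKB1 WT arrays numbered 41 to 60 without an array, and those wholly below 1 to 3. In the RbpJk arm these were 1 to 5 and 7 to 22. With median centring the RbpJk arm had 3 above and 1 below, where 12.7% and 5.62% of all genes were. Fewer arrays raise such counts by construction, for members and other genes alike. No share of all genes is given beside the counts without an array.

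Signs turned for these members, which were called under no setting. In the RbpJk arm Cox4i1 was 0.072 with the Xist covariate, 0.016 with array weights, 0.043 with median centring and −0.088 to 0.028 without an array. Ndufa4 was −0.0074 with array weights, −0.024 with quantile normalization and −0.053 to 0.071 without an array. Cox6a1 was −0.23 to 0.033 without an array, and Cox8b, at 1.34 with all arrays, was −0.081 without RbpJk KO 2 and up to 2.07 without another. In the LKB1 arm, Cox4i2 was 0.042 with the Xist covariate, 0.00060 with array weights and −0.097 to 0.079 without an array. With the Xist covariate Cox6b2 was −0.051 and Cox8b 0.065. Without an array Cox6b2 was −0.038 to 0.12 and Ndufa4l2 −0.16 to 0.26. Over all 51 named changes and their alternatives, 1039 of 1113 values kept their direction and their side of the threshold, 34 lost and 19 gained a call, and 21 turned sign. The lost calls were those of Idh2 (11 of 22 alternatives), Esrrg (8), Fh1 (6), Stk11 (6), Mdh2 (1), Sco2 (1) and Cox7a1 (1). All 7 lost it with the unpaired t-test after adjustment (adjusted p of 0.17 for Cox7a1, whose other settings gave at most 0.044). Beside the left-out arrays, Fh1 and Idh2 lost it without an intensity trend (0.079 and 0.23), Idh2 with the Xist covariate (0.22), and Esrrg with the Xist covariate (0.15), with the 6 arrays of its arm alone (0.14) and with array weights (0.055). No paired analysis was possible because no label ties a knockout liver to a control liver.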

Other observations

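The remaining marker lists gave these values. In LKB1 KO against LKB1 WT livers the median log2 change was −0.38 for 5 B cell markers, −0.27 for 7 neutrophil markers, 0.01 for 10 stellate cell and fibroblast markers and 0.20 for 6 cholangiocyte markers, with Bicc1 called higher and Reln called lower. It was 0.03 for 12 striated muscle and 0.12 for 7 pancreatic acinar markers, with 0 called. Over all genes 0.418% were called higher and 0.543% lower in the LKB1 arm. In RbpJk KO against RbpJk WT livers B cell markers had a median of −0.62 with 2 of 5 called lower (Igll1 and Rag1). Erythroid markers had a median of −0.44 with 1 of 8 called lower (Klf1). Over all genes 1.12% were called higher and 0.565% lower in the RbpJk arm. The medians were 0.05 for hepatocyte markers (Hnf4a called higher), 0.08 for Kupffer cell markers (Cd68 and Cd5l called higher, Adgre1 lower), 0.12 for endothelial, 0.18 for neutrophil, 0.06 for stellate cell and 0.08 for cholangiocyte markers, and 1.11 for striated muscle and −0.75 for pancreatic acinar markers, with 0 called in the last 6 lists.

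Ndufa12 differed between the arms more than within them. It read 8.65 to 9.99 on the 6 arrays of the LKB1 arm, where LKB1 WT 2 held the highest value, and 10.26 to 10.66 on the 6 arrays of the RbpJk arm. The arms were not compared by a test.

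The 3 pseudogene symbols left out by the rule have probe sets of their own. Ndufs5-ps read 7.01, 6.52 and 7.20 in LKB1 KO livers, against 6.68, 6.64 and 6.83 in LKB1 WT livers, with overlapping groups.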
